A study of Mus musculus with 37 samples.

Results

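The 39 Hox genes of the mouse, which lie in the Hoxa, Hoxb, Hoxc and Hoxd clusters, were described in RNA counts of the adult hippocampus, together with the CTCF loops that have an anchor inside a cluster. Members were the genes whose symbol in GENCODE M21 is Hox, a cluster letter from a to d and a number. They made up 39 of the 48795 genes counted, with 11 genes in Hoxa (chr6:52155590-52260880), 10 in Hoxb (chr11:96194316-96368256), 9 in Hoxc (chr15:102921103-103036852) and 9 in Hoxd (chr2:74668310-74765142, GRCm38.p6). RNA-seq of poly-A RNA was made from whole hippocampus of 3 control and 3 Kdm1a-ifKO mice, all male and on a C57BL/6J background, with 1 library per mouse. Kdm1a-ifKO mice carried Kdm1a f/f and Camk2a-creERT2 and were given intragastric tamoxifen at 8 weeks of age. Controls were littermates without creERT2 that received the same tamoxifen. Camk2a-creERT2 recombines in principal neurons of the forebrain, whereas the RNA also came from the other cells of the hippocampus, so that fewer cells and less RNA per cell cannot be told apart. CTCF loops came from 1 ChIA-PET library, an assay that joins and sequences DNA ends held together at CTCF. Its nuclei were of hippocampal excitatory neurons, sorted from 12 weeks old male control mice with Camk2a-creERT2 and CAG-Sun1/sfGFP, which had also received tamoxifen, 1 month before. So no loop was measured in Kdm1a-ifKO mice, and loops of 1 class of neuron are set beside RNA of all cells of the hippocampus.

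The control libraries held 19160327, 19088998 and 18985542 counts and the Kdm1a-ifKO libraries 19469947, 19445743 and 19370926 counts. A gene at 0 counts in a library may still have had up to 3 counts, which is between 0.154 and 0.158 CPM, read counts scaled to the library total. Intervals and such limits cover counting error only.

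Hox genes encode homeodomain transcription factors that give cells their position along the head-to-tail axis of the embryo. They lie in their clusters in the order of their use, from anterior genes with low group numbers to posterior genes up to group 13, and the forebrain forms ahead of the territory in which they are expressed. Where they are off, the clusters carry Polycomb proteins and H3K27me3. CTCF halts the extrusion of DNA loops by cohesin in a way that depends on the direction of its motif, and CTCF inside Hox clusters separates anterior from posterior genes in embryonic cells.

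The sequences below are the matches to the CTCF motif at the anchors on which the loops of the clusters turned, with the 20 matching bases in capitals and 5 bases on each side, from the GRCm38.p6 genome, 5′ to 3′ along the motif. An anchor site is a run of overlapping loop anchors, numbered within each cluster from the posterior end. The matches at Hoxa sites 1 and 3 stand for a posterior and an anterior site of the same cluster, which pointed in opposite directions. The first lies in an exon of 9530018H14Rik beside Hoxa13 and the other in the UTR of Hoxa7. Hoxb site 2 and Hoxb site 3, both between genes, stand for the same arrangement in Hoxb.
Hoxa site 1, chr6:52257113-52257142, plus strand: gcttgTCAACACGAGGTGGCGCCCTtgatc
Hoxa site 3, chr6:52221799-52221828, minus strand: agaaaATTCCAGGAGATGGCAGTGTggctc
Hoxb site 2, chr11:96240412-96240441, minus strand: ctagaCAGACACTAGAGGGTGCTCGgcgct
Hoxb site 3, chr11:96278940-96278969, plus strand: cacagTGGCCGCTAGATGGCATCCTtgctc

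The next sequences are those at both ends of the strongest loops of Hoxb, Hoxc and Hoxd, shown because the direction of the matches can be read against the loop. In Hoxb the loop from site 3 ended in an intron of Copz2. In Hoxd it ran from site 4, in introns of Hoxd3 and Hoxd4 and an exon of Hoxd3os1, to an anchor between genes. In Hoxc it ran from site 2 to an anchor between genes near Smug1 and Cbx5. The match at Hoxc site 2 lies between Hoxc9 and Hoxc8, in an intron of the annotated Hoxc5 gene, whose long model spans both.
Copz2 intron, chr11:96860759-96860788, minus strand: agcccTGGCCACTAGATGGCAGCAGcttgc
Hoxd site 4, chr2:74715913-74715942, plus strand: agcttTGTCCAGGAGGAGGCGCTGTaggac
Hoxd outer anchor, chr2:74964529-74964558, minus strand: aggagCCTCCAGCAGGGGGCACCCTtttgc
Hoxc site 2, chr15:102985714-102985743, minus strand: tcctaCAGCCACCAGAGAGCACCCCattcc
Hoxc outer anchor, chr15:103177225-103177254, minus strand: acactTGACCAGCAGGGGGAAGCAGatgcc

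Kdm1a, the histone demethylase that was deleted, was measured to see how far its RNA had fallen in the same libraries. It stood at 79.5, 81.1 and 79.6 CPM in the controls and at 39.3, 36.9 and 38.4 in the Kdm1a-ifKO libraries. The groups did not overlap. Kdm1a RNA fell by 1.07 on the log2 scale (SE 0.0559, adjusted p = 6.24e-08 by the edgeR quasi-likelihood test with Benjamini-Hochberg adjustment, lower in 3 of 3 Kdm1a-ifKO libraries). An exact 2-sided permutation test over 3 against 3 libraries cannot give a p below 0.1.

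The Hox genes were close to silent in both genotypes. Of the 39 genes, 30 had 0 counts in all 6 libraries, and the other 9 held 23 counts together, 13 in the controls and 10 in the Kdm1a-ifKO libraries. Summed over the 39 genes, the controls had 5, 3 and 5 counts and the Kdm1a-ifKO libraries 8, 2 and 0 counts. The groups overlapped, with the highest and the lowest library both from Kdm1a-ifKO mice. This was 0.227 CPM in the controls (95% Poisson interval from 0.121 to 0.388 over the summed libraries) and 0.172 in Kdm1a-ifKO (0.0823 to 0.316). The ratio of Kdm1a-ifKO to control was 0.755, with a 95% counting interval from 0.296 to 1.86. A difference within that range was not detectable at this depth. The ratio rested on single libraries. Without Kdm1a-ifKO 1, which held 8 of the 10 counts, it was 0.227 (0.0249 to 1.002), and without Kdm1a-ifKO 3 it was 1.13 (0.444 to 2.79).

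Hoxd held 11 of the 23 counts. Its counts were 5, 1 and 1 in the controls and 2, 2 and 0 in Kdm1a-ifKO, a ratio of 0.561 (0.120 to 2.21). Without control 1, which held 5 of the 7 control counts, the ratio turned to 1.31 (0.187 to 14.4). Hoxd1, the most anterior gene of that cluster, carried most of them and more than any other Hox gene, with 4, 1 and 1 counts in the controls and 2, 1 and 0 in Kdm1a-ifKO. Its ratio was 0.491 (0.0795 to 2.30), and 0.246 (0.00534 to 2.03) without Kdm1a-ifKO 1. Without control 1 its counts were 2 in the controls and 3 in Kdm1a-ifKO, and no ratio was taken. The remaining Hoxd counts were 1 of Hoxd3 in control 1 and 1 of Hoxd8 in Kdm1a-ifKO 2, and 6 of the 9 Hoxd genes were at 0 in all 6 libraries. So most counts of this cluster lay at its anterior end.

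Hoxa had 0, 2 and 2 counts in the controls and 1, 0 and 0 in Kdm1a-ifKO, a ratio of 0.245 (0.00498 to 2.48). Most of these were of Hoxa7, with 0, 2 and 1 counts in the controls and 0 in each Kdm1a-ifKO library. Hoxb had 0, 0 and 1 counts in the controls and 3, 0 and 0 in Kdm1a-ifKO, from Hoxb4 and Hoxb8. Hoxc had 0, 0 and 1 counts in the controls and 2, 0 and 0 in Kdm1a-ifKO, all from Hoxc13. In Hoxb and Hoxc neither genotype held more than 3 counts, and no ratio was taken. In Hoxa, Hoxb and Hoxc, 8 genes each were at 0 in all 6 libraries. Library 1 of Kdm1a-ifKO held all 6 of the counts that this genotype had in these clusters, so the Kdm1a-ifKO counts of Hoxa, Hoxb and Hoxc rested on that library and were 0 without it.

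**Figure D1:**
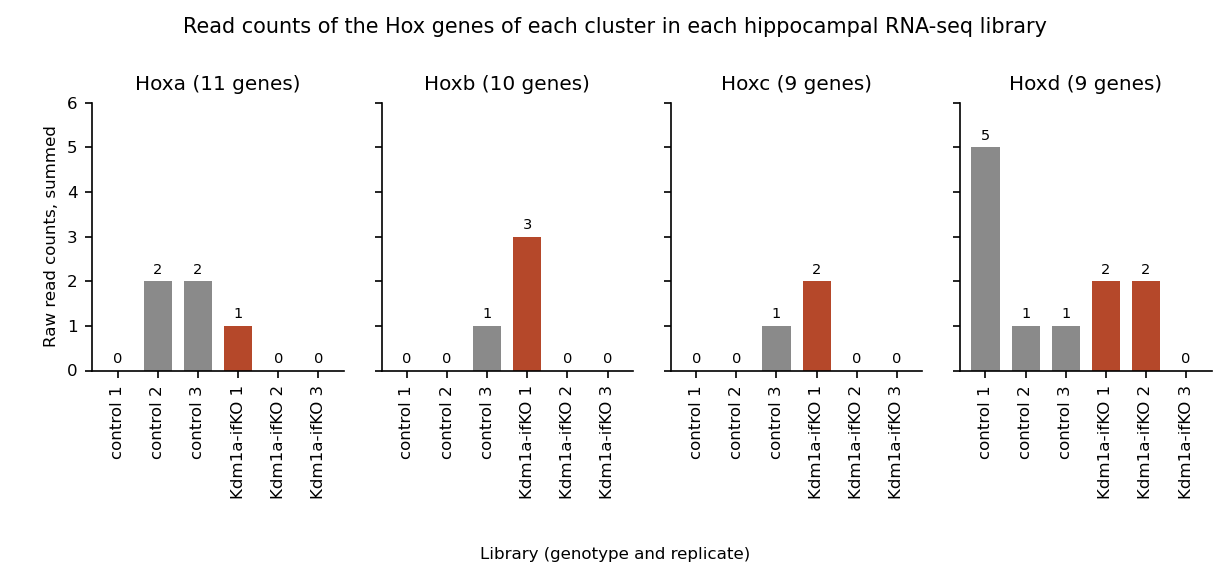
Raw read counts summed over the Hox genes of each cluster (vertical axis, from 0) in the 3 control (grey) and 3 Kdm1a-ifKO (red) libraries, a panel for each cluster, with the count written over each bar. The highest value is 5 counts, in Hoxd of control 1, and Kdm1a-ifKO 3 is at 0 in all 4 clusters.

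How silent the clusters were can be read against other genes in the same libraries. Of 21643 other protein-coding genes counted, 3958 (18.3%) were at 0 in all 6 libraries, against 76.9% of the Hox genes. The median of those other genes was 822 counts over the 6 libraries. Hoxd1, with 9 counts, was the highest Hox gene, and 5705 of the other genes (26.4%) had 9 counts or fewer. Among the other genes with at most 3 counts over the controls, 61 of 5583 (1.09%) reached 10 counts or more over the Kdm1a-ifKO libraries. Of the Hox genes, 38 of 39 had at most 3 counts over the controls, 0 of these reached 10 counts in Kdm1a-ifKO, and the highest of them had 2. This was a count with no test.

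No Hox gene could be tested for a difference between the genotypes with the filter on low counts, since 0 of 39 passed it and the lowest tested gene had 37 counts over the 6 libraries. In that fit edgeR called 1487 of 16799 genes at an adjusted p under 0.05, which is 8.85%, 1014 of them higher and 473 lower in Kdm1a-ifKO. Without the filter, edgeR tested the 9 Hox genes that had a count and called 0, with 0 at an unadjusted p under 0.05, beside 8.81% of all genes. DESeq2 gave those 9 genes an unadjusted p but no adjusted p, called 0 and had 0 at an unadjusted p under 0.05, beside 8.15% of all genes. With so few counts these tests had little to work on.

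Counts could be lost where gene models overlap, because a read that lies on exons of more than 1 gene may be assigned to none. Of the 39 Hox genes, 30 shared no exon base with another gene on the same strand, and 22 of those 30 were at 0 in all 6 libraries. Counting both strands, 23 shared none, and 17 of the 23 were at 0. Hoxd3 shared the most, with 62.3% of its exon bases on its strand. The strand setting of the counting was not stated, so counts of overlapping genes on opposite strands are uncertain.

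The other genes inside the clusters were mostly at 0 too. The spans of the clusters hold 46 annotated genes besides the Hox genes, among them 7 microRNA genes and long noncoding RNAs such as Hotair, Hotairm1 and Hoxa11os, and 42 were at 0 in all 6 libraries. Primary microRNA transcripts and RNA without a poly-A tail may be missed by poly-A libraries. Gm11539, a processed pseudogene in the stretch between Hoxb13 and Hoxb9, had 54 of the 65 counts of these genes, with 16, 6 and 5 in the controls and 8, 9 and 10 in Kdm1a-ifKO. The totals of 27 in each genotype were equal through control 1 alone, and without it the controls stood below each Kdm1a-ifKO library. Haglr, a noncoding RNA that starts opposite Hoxd1, had 0, 2 and 3 counts in the controls and 1, 0 and 1 in Kdm1a-ifKO. The others with a count were Gm14424 with 3 and Gm14426 with 1, both within the body of Haglr. So the anterior end of Hoxd was where most counts of the clusters lay, apart from the pseudogene.

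Camk2a, a marker of excitatory neurons, was high in the same libraries, at 2471 TPM (counts scaled by exon length and library) in the controls and 2578 TPM in Kdm1a-ifKO. The related homeobox genes outside the clusters were low. Of the 9 ParaHox, Evx and Mnx genes, 4 were at 0 in all 6 libraries and 0 passed the filter, so none was tested with it. Without the filter, 5 of the 9 were tested by edgeR and 0 called, beside 8.81% of all genes, with 0 at an unadjusted p under 0.05. DESeq2 also called 0 of them, beside 8.15% of all genes, with 0 unadjusted. Evx2 lies beside Hoxd13 and had 0 counts in all 6 libraries, and Evx1, beside Hoxa13, had 1 count, in Kdm1a-ifKO. Gsx1 had 5, 7 and 9 counts in the controls and 8, 7 and 11 in Kdm1a-ifKO. Gsx2 had 5, 10 and 1 counts in the controls and 4, 1 and 3 in Kdm1a-ifKO, so the groups overlapped and 10 of its 16 control counts came from control 2.

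The genes listed as related to Hox genes, as partners of Hox proteins or as acting on Hox clusters numbered 72, with the 9 ParaHox, Evx and Mnx genes among them. Of the 72, 62 were tested, 3 were higher and 1 lower in Kdm1a-ifKO, which is 6.45% beside 8.85% of all tested genes. Without the filter 12 of the same 62 were called (19.4%), beside 14.7% of the 16799 genes that had passed it, and 0 of the 6 others then tested. Their median log2 difference was -0.0143, beside -0.0034 over all tested genes.

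TALE homeodomain proteins bind DNA together with Hox proteins. All 9 TALE genes were tested and 1 was called, which is 11.1% beside 8.85% of all tested genes, with a median log2 difference of -0.0177. Pbx2, at 57.2 TPM in the controls and 56.8 in Kdm1a-ifKO, and Meis3, at 45.6 and 49.7 TPM, were the most abundant. Meis2, a cofactor that also acts in forebrain neurons, had 53.0, 52.5 and 56.2 CPM in the controls and 37.7, 47.7 and 43.1 in Kdm1a-ifKO. The groups did not overlap. Meis2 was lower by a log2 difference of -0.33 (SE 0.0786, adjusted p = 0.0205 by edgeR with Benjamini-Hochberg adjustment, lower in 3 of 3 Kdm1a-ifKO libraries). The call was lost without Kdm1a-ifKO 1 (adjusted p = 0.0834), Kdm1a-ifKO 3 (0.0584) or control 3 (0.0516) in edgeR.

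Polycomb subunits form the complexes that place H3K27me3 and bind it. All 24 were tested and 1 was higher (4.17%, beside 8.85% of all tested genes), 2 were called without the filter (8.33%, beside 14.7%), and the median log2 difference was -0.0104. Rbbp7 stood at 182 TPM in both genotypes, and Cbx6 at 163 TPM in the controls and 171 in Kdm1a-ifKO. Ezh1, the H3K27 methyltransferase of non-dividing cells, had 109.9, 115.8 and 118.3 CPM in the controls and 136.3, 129.5 and 137.1 in Kdm1a-ifKO. Its values did not overlap between the genotypes. Ezh1 was higher by 0.23 on the log2 scale (SE 0.0523, adjusted p = 0.0163 by edgeR with Benjamini-Hochberg adjustment, higher in 3 of 3 Kdm1a-ifKO libraries). In edgeR the call was lost without Kdm1a-ifKO 1 (adjusted p = 0.0712), Kdm1a-ifKO 3 (0.0873), control 1 (0.0546) or control 2 (0.0529).

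Trithorax proteins and H3K27 demethylases keep Hox genes on where they are in use. All 8 listed genes were tested with edgeR and 0 were called, beside 8.85% of all tested genes. In edgeR 0 were at an unadjusted p under 0.05, beside 4108 of all 16799 tested genes. DESeq2 called 0 and had 1 at an unadjusted p under 0.05, beside 3206 of the 16799. Without the filter edgeR called 1 of the 8, beside 14.7% of the genes that had passed it. Rbbp5 was the most abundant in the controls, at 67.6 TPM there and 68.8 in Kdm1a-ifKO, followed by Men1 at 66.4 and 69.3.

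Retinoic acid switches on anterior Hox genes in the embryo. Of the 14 genes of this pathway 13 were tested and 2 were higher, which is 15.4% beside 8.85% of all tested genes, with a median log2 difference of 0.27. Without the filter 6 of the same 13 were called (46.2%), beside 14.7% of the genes that had passed it. With so few genes such shares move far by a single call. The most abundant in the controls were Rxrb, at 71.5 TPM there and 76.2 in Kdm1a-ifKO, and Aldh1a1, at 44.9 and 38.7 TPM. Rxra, a partner of the retinoic acid receptors, had 44.3, 44.3 and 39.7 CPM in the controls and 52.3, 54.6 and 57.5 in Kdm1a-ifKO. It was higher by 0.36 (log2, SE 0.0656, adjusted p = 0.00407 by edgeR with Benjamini-Hochberg adjustment, higher in 3 of 3 Kdm1a-ifKO libraries) and was called when each of the 6 libraries was left out in turn. Rarg, a retinoic acid receptor, had 10.4, 9.50 and 9.35 CPM in the controls and 12.1, 14.5 and 12.4 in Kdm1a-ifKO. It was higher by 0.42 (log2, SE 0.106, adjusted p = 0.0273 by edgeR with Benjamini-Hochberg adjustment, in 3 of 3 Kdm1a-ifKO libraries). This call was lost in DESeq2 (adjusted p = 0.0594). In edgeR it was lost without Kdm1a-ifKO 2 (adjusted p = 0.101), Kdm1a-ifKO 3 (0.0531), control 2 (0.0836) or control 3 (0.0640).

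Aldh1a2, an enzyme that makes retinoic acid, was chosen after its values were seen. The gene had 4.79, 4.05 and 5.73 TPM in the controls and 7.23, 18.8 and 7.22 in Kdm1a-ifKO. The groups did not overlap, but Kdm1a-ifKO 2 stood far above the rest. EdgeR did not call Aldh1a2 (log2 difference 1.177, SE 0.436, adjusted p = 0.165 with Benjamini-Hochberg adjustment, higher in 3 of 3 Kdm1a-ifKO libraries), whereas DESeq2 did (log2 difference 1.176, adjusted p = 0.00592). EdgeR without the filter called it too (adjusted p = 0.00674). Without Kdm1a-ifKO 2 the log2 difference in edgeR was 0.57 (adjusted p = 0.107).

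Other genes of this list stood lower in Kdm1a-ifKO, and these too were chosen after their values were seen. Cyp26b1, an enzyme that breaks down retinoic acid, had 9.94, 10.4 and 12.0 TPM in the controls and 7.45, 9.97 and 7.33 in Kdm1a-ifKO. In TPM Kdm1a-ifKO 2 stood just above control 1, and in CPM just below it, at 13.25 against 13.34. EdgeR did not call Cyp26b1 (log2 difference -0.39, SE 0.126, adjusted p = 0.0735 with Benjamini-Hochberg adjustment, lower by CPM in 3 of 3 Kdm1a-ifKO libraries), nor did DESeq2 (adjusted p = 0.0939). It was called by edgeR without Kdm1a-ifKO 2 (0.0106, log2 difference -0.55) and without the filter (0.00652). Aldh1a1 was also not called by edgeR (log2 difference -0.22, SE 0.0705, adjusted p = 0.0696 with Benjamini-Hochberg adjustment, lower in 3 of 3 Kdm1a-ifKO libraries) or DESeq2 (0.101). EdgeR called Aldh1a1 without control 2 (0.0242, log2 difference -0.30) and without the filter (0.0201). So the list held values in both directions.

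Markers of other cell types were read in the same libraries. Of 5 astrocyte markers, 1 was higher in Kdm1a-ifKO, Slc1a3, which was also the most abundant, at 383 TPM in the controls and 449 in Kdm1a-ifKO. Slc1a3 was higher by 0.22 (log2, adjusted p = 0.0161 by edgeR with Benjamini-Hochberg adjustment, in 3 of 3 Kdm1a-ifKO libraries). The call was lost without Kdm1a-ifKO 1 (adjusted p = 0.0503), Kdm1a-ifKO 3 (0.0889), control 1 (0.0523) or control 2 (0.0960). The summed level of the 5 was 1032, 939 and 1016 TPM in the controls and 1128, 1172 and 1281 in Kdm1a-ifKO. Of 6 markers of excitatory neurons, 1 was lower, Neurod6, and it was called when each library was left out in turn. Their summed level was 4474, 4264 and 4193 TPM in the controls and 4553, 4196 and 4479 in Kdm1a-ifKO.

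Of 5 markers of mural cells and fibroblasts, 1 was higher, Pdgfrb. Their summed level was 203, 207 and 204 TPM in the controls and 202, 277 and 182 in Kdm1a-ifKO, so it was highest in Kdm1a-ifKO 2, the library in which Rarg and Aldh1a2 were highest too. Of 5 markers of ependyma and choroid plexus, 1 was higher, Kl, and their summed level was 140, 60.0 and 50.1 TPM in the controls and 50.3, 61.2 and 74.1 in Kdm1a-ifKO. Ttr, the most abundant of these, had 107.5, 35.9 and 23.5 TPM in the controls and 11.04, 21.2 and 27.4 in Kdm1a-ifKO. The groups overlapped, and control 1 carried most of the control level of Ttr and of the list. Of 4 thalamus markers, 1 was higher, Prkcd, and their sum was 37.2, 34.7 and 38.4 TPM in the controls and 43.2, 46.4 and 51.6 in Kdm1a-ifKO. Prkcd, at 23.6 TPM in the controls and 35.3 in Kdm1a-ifKO, carried that rise, and the other 3 markers together did not rise. The calls of Pdgfrb, Kl and Prkcd were kept when each library was left out in turn. Of 6 interneuron markers, 1 was lower, Vip, and their sum was 1603, 1651 and 1511 TPM in the controls and 1606, 1612 and 1584 in Kdm1a-ifKO. The Vip call (log2 difference -0.46, adjusted p = 0.0122 by edgeR with Benjamini-Hochberg adjustment, lower in 3 of 3 Kdm1a-ifKO libraries) was lost without Kdm1a-ifKO 1 (0.0630) or Kdm1a-ifKO 3 (0.0548). In these lists 0 markers were at 0 in all 6 libraries. Of 5 endothelial markers, edgeR called 0, with 0 at an unadjusted p under 0.05, and DESeq2 also called 0, with 0 unadjusted. Their sum was 172, 158 and 154 TPM in the controls and 151, 199 and 163 in Kdm1a-ifKO. Of 5 markers of the oligodendrocyte lineage, edgeR called 0 with 1 at an unadjusted p under 0.05, DESeq2 called 0 with 1 unadjusted, and edgeR without the filter called 1. Their sum was 2590, 2330 and 2444 TPM in the controls and 2210, 2762 and 2829 in Kdm1a-ifKO. In all these lists the numbers of markers are small, and 8.85% of all tested genes were called. The part of these cell types in the values of Meis2, Ezh1, Rxra, Rarg and Aldh1a2 was not tested.

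CTCF and the cohesin subunits hold chromatin loops. All 8 were tested with edgeR and 0 were called, beside 8.85% of all tested genes, with 2 at an unadjusted p under 0.05. DESeq2 called 0 and had 3 at an unadjusted p under 0.05. Over all 16799 tested genes, 4108 had an unadjusted p under 0.05 in edgeR and 3206 in DESeq2. EdgeR called 2 of the 8 without the filter, beside 14.7% of the genes that had passed it. Without control 1 it called 1, Wapl, which releases cohesin (log2 difference -0.27, adjusted p = 0.0431 with Benjamini-Hochberg adjustment, lower in 3 of 3 Kdm1a-ifKO libraries). With all 6 libraries Wapl, named here after its values were seen, was at -0.21 (adjusted p = 0.0894, and 0.0294 without the filter). Ctcf stood at 68.6 TPM in the controls and 68.3 in Kdm1a-ifKO, and Rad21, a cohesin subunit, at 108 TPM in both genotypes. The fitted log2 differences of the 8 genes ran from -0.25 to -0.0010, with a median of -0.0644.

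In the CTCF library of the controls, 53 of 27786 loops had an anchor inside a Hox cluster, with 602 of 305716 paired-end tags (PETs), the joined reads that count a loop. All 4 clusters had such loops although their genes were silent in whole hippocampus. Hoxa had 7 loops with 30 PETs, Hoxb 17 with 96, Hoxc 14 with 375 and Hoxd 15 with 101. Per 100 kb of cluster this was 6.65 loops in Hoxa, 9.77 in Hoxb, 12.1 in Hoxc and 15.5 in Hoxd. The clusters are 96.8 to 173.9 kb long. Fixed windows of 100 kb that hold the start of a protein-coding gene had a median of 1 loop, and 44.2% of 10699 such windows had 0. Windows as long as each cluster were also counted, and 20.1% of them had at least as many loops as Hoxa, 6.69% as many as Hoxb, 6.95% as many as Hoxc and 4.90% as many as Hoxd. Their length was chosen after the loops were seen. The assay had 1 library, so loop counts have no replicate error and differences between clusters were not tested.

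Hox loops were longer by median than loops in general and about as strong. Their median span was 257.2 kb, beside 115.4 kb over all loops, and spans ran from 10.6 to 903 kb. Their median was 4 PETs, beside 5 over all loops, and 11 of the 53 (20.8%) had 10 PETs or more, beside 24.3% of all loops. The least that a listed loop can have is 3 PETs, and 20 of the Hox loops (37.7%) had just that, beside 31.1% of all loops. Median spans were 363.9 kb in Hoxa, 257.2 kb in Hoxb, 174.9 kb in Hoxc and 447.6 kb in Hoxd, so the loops of Hoxc were the shortest by median and also the strongest.

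**Figure D2:**
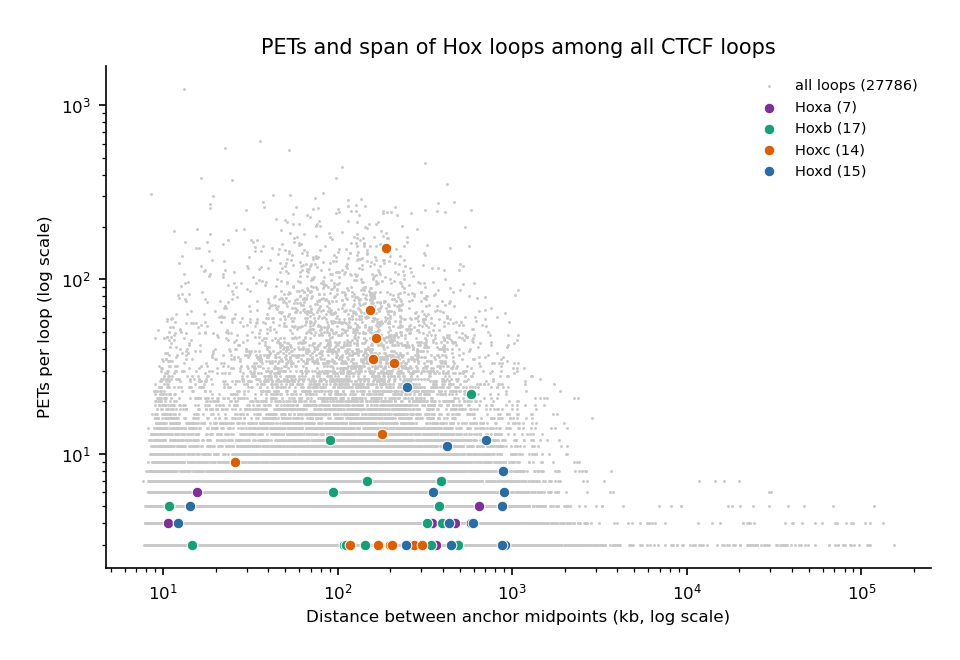
PETs per loop (vertical, log scale) against the distance between anchor midpoints in kb (horizontal, log scale), with all 27786 loops in grey and the 53 Hox loops coloured by cluster. Hox loops spread from 10.6 to 903 kb, and those of Hoxc reach the highest counts, up to 151 PETs.

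Of the 53 loops, 7 had both anchors inside a cluster, 12 left it past its posterior end and 34 past its anterior end. The 34 anterior loops held 473 of the 602 PETs (78.6%), the 12 posterior loops 93 PETs and the 7 inner loops 36 PETs. Anterior loops had 40.0% of the PETs of Hoxa, 56.3% of Hoxb, 87.2% of Hoxc and 79.2% of Hoxd. Loops that passed over a whole cluster were few and weak. There were 31, with 3 to 5 PETs each, and 7 of these spanned at most 2 Mb, 1 over Hoxb and 6 over Hoxc.

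The direction of the loops followed the order of the sites along each cluster. Of the 17 anchor sites, 13 had loops that left the cluster. In all 4 clusters the sites nearest the posterior end sent loops past that end and the later sites past the anterior end. This held for 45 of the 46 loops that left a cluster. The dividing point in each cluster was placed after the loops were seen, where the fewest loops went against the order. These loops came from only 2 sites in Hoxa, 5 in Hoxb, 3 in Hoxc and 3 in Hoxd. Loops of a site share anchors and are not independent. The exception was a loop of 3 PETs from Hoxc site 2.

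The dividing point lay between 3.84 and 39.1 kb from the posterior end in Hoxa, between Hoxa13 and the start of Hoxa7. In Hoxb it lay between 45.9 and 85.1 kb, from the gap after Hoxb13 to the stretch between Hoxb9 and Hoxb8. In Hoxc it lay between 49.7 and 67.6 kb, from Hoxc10 to the stretch around the start of Hoxc8. In Hoxd it lay between 5.41 and 33.6 kb, from the start of Hoxd12 to the stretch between Hoxd9 and Hoxd8. So in each cluster the most posterior of the sites with anterior loops lay at or beside a gene of groups 7 to 9.

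**Figure D3:**
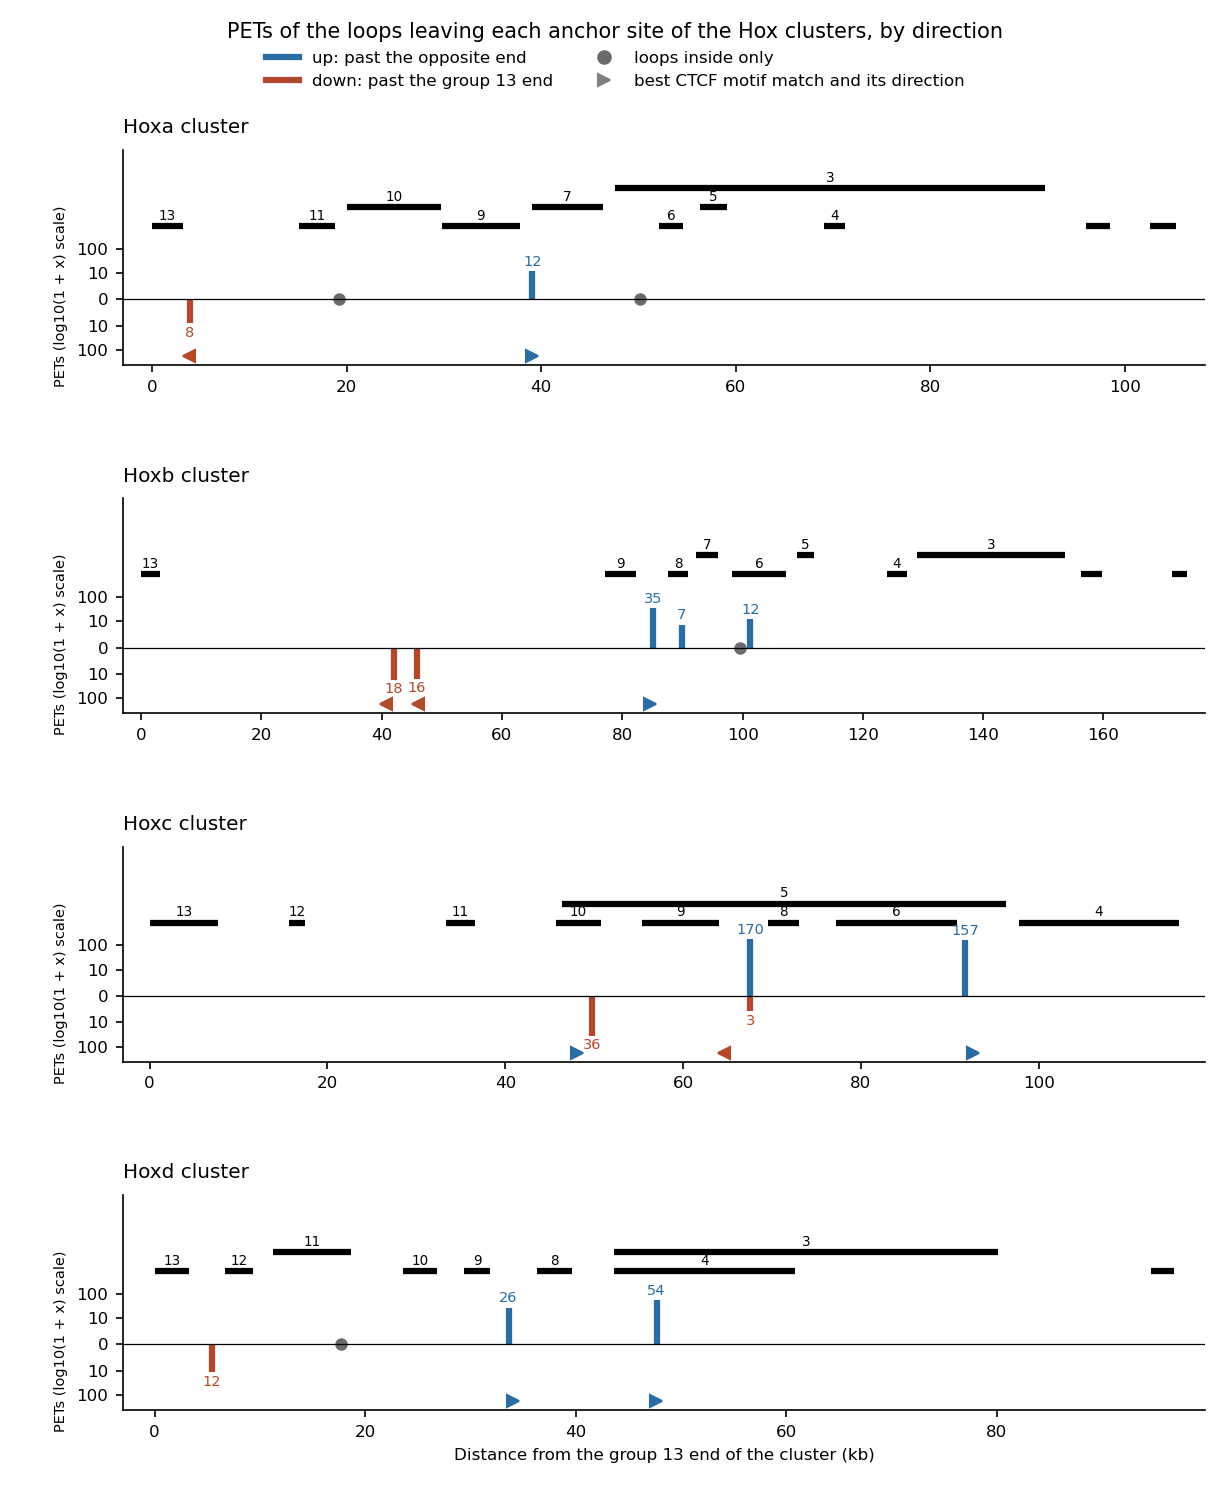
PETs of the loops that leave each anchor site (vertical, log10 of 1 + PETs), upward for loops past the anterior end and downward for loops past the group 13 end, against the distance from the posterior end in kb. Black bars are Hox genes, with the group number given from group 3 up, grey circles sites with inner loops alone, and triangles the direction of the best CTCF motif match. Downward bars lie to the left of upward bars in each cluster, except for 3 PETs at Hoxc site 2.

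Hoxa had the fewest loops and PETs and the lowest maximum per loop, although its median of 4 PETs equalled that of Hoxb. Its strongest, with 6 PETs, stayed inside the cluster and joined sites 1 and 2, which overlap exons of Hoxa13 and Hoxa11, over 15.6 kb. Site 1 also sent 8 PETs past the posterior end, to Jazf1 and Tax1bp1. Site 3, which holds the start of Hoxa7, sent 12 PETs past the anterior end, to Skap2 and Snx10.

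In Hoxb, sites 1 and 2 lie between Hoxb13 and Hoxb9 and sent 18 and 16 PETs past the posterior end. The strongest of these, with 12 PETs over 90.7 kb, ended at Ttll6. Site 3, between Hoxb9 and Hoxb8, sent 35 PETs past the anterior end, and 22 of them were the strongest loop of the cluster, which reached Copz2 over 582.4 kb. Site 4 in Hoxb8 and site 6 in the body of Hoxb6 sent 7 and 12 PETs the same way, most of them into Skap1.

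Hoxc had 375 of the 602 PETs from 3 sites. The strongest Hox loop joined site 2, which overlaps exons of Hoxc9 and Hoxc8 and the start of Hoxc8, to an anchor near Smug1 and Cbx5 with 151 PETs over 189.6 kb. Of all loops, 131 (0.471%) had at least as many. From site 3, which overlaps exons of Hoxc6, Hoxc5 and Mir615, loops of 67, 46 and 35 PETs ended near Smug1 at spans of 153.7, 165.1 and 158.8 kb. A further loop from site 2, with 13 PETs over 178.2 kb, ended in Smug1. Many of these anchors overlap, so the loops are not independent of each other. Site 1, which overlaps exons of Hoxc10 and Mir196a-2, sent 36 PETs past the posterior end, 33 of them in a loop of 208.5 kb. An inner loop of 9 PETs joined sites 2 and 3.

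Hoxd had the longest loops by median, and no protein-coding gene lay within 10 kb of any outer anchor of this cluster. Site 4, in introns of Hoxd3 and Hoxd4, sent 54 PETs past the anterior end, with the strongest loop at 24 PETs over 249.6 kb. Site 3, between Hoxd9 and Hoxd8, sent 26 PETs the same way, as far as 903 kb. Site 1, at the start of Hoxd12, sent a loop of 12 PETs over 708.4 kb past the posterior end.

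**Figure D4:**
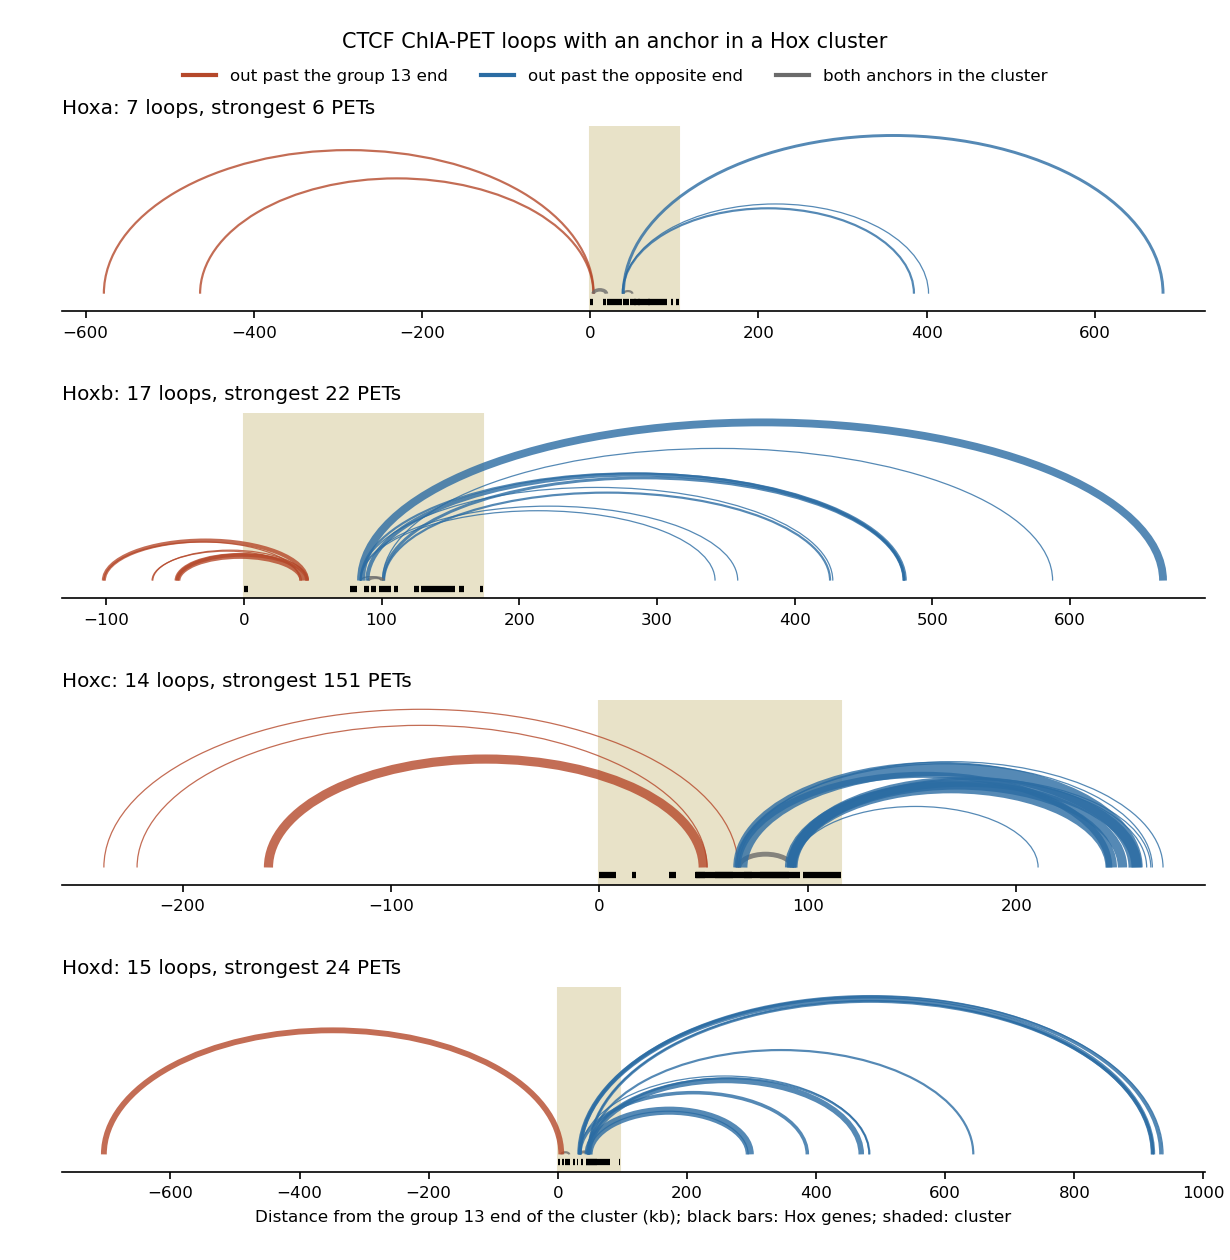
Loops with an anchor in a Hox cluster, drawn as arcs between anchor midpoints against the distance from the posterior end of the cluster in kb (each panel has its own scale, and line width grows with log2 PETs). Colours give loops past the group 13 end, past the anterior end and inside, black bars are Hox genes and shading the cluster. Posterior and anterior loops start from separate stretches of the cluster in Hoxa, Hoxb and Hoxd.

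Of the 39 Hox genes, 3 (7.69%), Hoxa7, Hoxc8 and Hoxd12, had their start in a loop anchor, beside 2239 of 21716 other protein-coding genes (10.3%). With so few genes these shares are close to each other. All 3 had 3 counts or fewer over the 6 RNA libraries.

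The CTCF motif gave a direction to compare with the loops. This was chosen after the loops were seen. A matrix of the CTCF core motif was built from anchors outside the Hox clusters, and a match was a score of at least 13.6 bits on either strand. This threshold was set so that 10.0% of windows of the same length, 20 kb from those anchors, held a match. Of the 60 anchors in the Hox clusters, 36 (60.0%) held a match, beside 30889 of 55420 other anchors (55.7%), on which the matrix itself was built. Held to the core motif with at most 1 mismatch, 10 of the 60 (16.7%) had a match, beside 46.7% of the other anchors. The 60 anchors overlap and fall into 17 sites, of which 10 held a match, so these shares count some sites several times. Differences from other anchors were not tested.

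Where a Hox anchor of a loop that left a cluster held a match, the best match pointed along the loop in 29 of 32 cases (90.6%). This was 4 of 4 in Hoxa, 9 of 9 in Hoxb, 6 of 9 in Hoxc and 10 of 10 in Hoxd. Over the ends of all loops outside the Hox clusters that held a match, with an anchor counted once for each of its loops, it was 24000 of 30960 (77.5%), so the Hox share is read against a high background, and loops that share an anchor site are not independent. By site, 10 of the 13 sites with loops that left a cluster held a match and 0 of the 4 sites with inner loops alone did. The 4 were also shorter, at 0.885 to 1.30 kb beside 1.37 to 8.93 kb, so they had fewer bases to match. The share in windows was set at the length of single anchors and does not hold for whole sites. The best matches scored 13.8 to 17.9 bits, some of them close to the threshold. At 8 of the 10 sites with a match, the best match pointed to the side with most PETs. Examples are the sequences of Hoxa sites 1 and 3 and of Hoxb sites 2 and 3. At Hoxc sites 1 and 2 the best match pointed away. The match at Hoxc site 2 therefore pointed the same way as the best match at its outer anchor. That anchor held 7 matches, 5 on the minus strand and 2 on the plus strand, so its direction is mixed. The best matches of Hoxb site 3 and Copz2, and of Hoxd site 4 and its outer anchor, pointed toward each other. A match is a description of the sequence and no measure of binding.

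Within 10 kb of the outer anchors lay 13 protein-coding genes, which were expressed at very different levels. Of these, 12 were tested with edgeR and 0 were called, with 0 at an unadjusted p under 0.05, while DESeq2 called 0 and had 0 at an unadjusted p under 0.05. Of all tested genes edgeR called 8.85%, so few calls were to be expected among 12. An unadjusted p under 0.05 was reached by 4108 of all 16799 tested genes in edgeR and by 3206 in DESeq2. The median log2 difference of the 12 genes was 0.0010, beside -0.0034 over all tested genes. Cbx5, which encodes a heterochromatin protein, was the most abundant, with 107 ± 8.16 TPM in the controls and 99.4 ± 3.47 in Kdm1a-ifKO (SD, n = 3 each), followed by Calcoco1 with 76.7 ± 1.79 and 82.7 ± 3.62 TPM. The other genes here were named for their place at the strongest loops or for low levels, after their values were seen. Smug1, a DNA repair enzyme at the end of the strongest Hoxc loops, stood at 11.8 ± 0.879 TPM in the controls and 11.9 ± 0.603 in Kdm1a-ifKO. Copz2, at the end of the strongest Hoxb loop, stood at 10.7 ± 1.47 and 12.7 ± 1.80 TPM. Ttll6 and Skap1 were low, at 1.65 and 0.676 TPM in the controls, and Calcoco2, at 0.130 TPM, was not tested. The median over the 13 genes was 38.5 TPM in the controls, beside 17.7 TPM over all tested genes. So the genes near the outer anchors ranged from active to nearly silent in whole hippocampus.

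**Figure D5:**
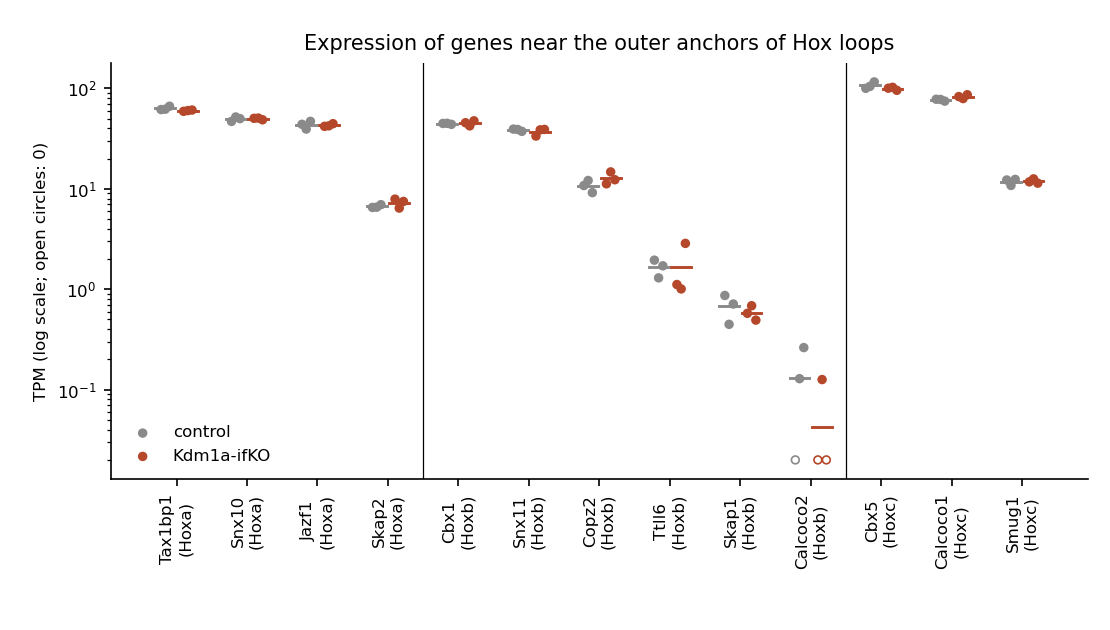
Level of the 13 genes near the outer anchors of Hox loops in TPM (vertical, log scale) in each control and Kdm1a-ifKO library (points) with the mean of 3 (bars). Open circles at the bottom are libraries at 0. Cbx5 has the highest mean in the controls, 107 TPM, and Calcoco2 the lowest, 0.130 TPM.

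Within 500 kb of the clusters lay 53 protein-coding genes that are not Hox genes, of which 38 were tested and 1 was called. This is 2.63%, beside 8.85% of all tested genes, and their median log2 difference was 0.0169. Nfe2l1, on the Hoxb side, and Ppp1r1a, on the Hoxc side, were the most abundant, at 231 and 225 TPM in the controls and 232 and 223 TPM in Kdm1a-ifKO. The called gene was Nckap1l on the Hoxc side, an actin regulator of blood and immune cells. It had 13.9, 12.3 and 13.9 CPM in the controls and 16.0, 17.4 and 18.6 in Kdm1a-ifKO. Nckap1l was higher by 0.37 (log2, SE 0.0926, adjusted p = 0.0235 by edgeR with Benjamini-Hochberg adjustment, higher in 3 of 3 Kdm1a-ifKO libraries). The call was lost in edgeR without Kdm1a-ifKO 3 (adjusted p = 0.106) or control 2 (0.0932).

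Microglia markers were read beside Nckap1l. Of 5, 3 were higher in Kdm1a-ifKO, beside 8.85% of all tested genes called, and 0 were at 0 in all 6 libraries. By edgeR with Benjamini-Hochberg adjustment, and each in 3 of 3 Kdm1a-ifKO libraries, they were Csf1r (log2 difference 0.33, adjusted p = 0.0377), Cx3cr1 (0.27, 0.0208) and Tmem119 (0.42, 0.0462). These calls depended on most libraries. Csf1r was called without Kdm1a-ifKO 1 alone, and its adjusted p reached 0.113 without control 3. Cx3cr1 was lost without Kdm1a-ifKO 2 (0.0507), Kdm1a-ifKO 3 (0.105), control 1 (0.0554) or control 2 (0.0777). Tmem119 was lost without Kdm1a-ifKO 3 (0.103), control 1 (0.0729), control 2 (0.120) or control 3 (0.119). DESeq2 called 4 of the 5 markers, beside 8.15% of all genes. EdgeR without the filter also called 4, beside 14.7% of the genes that had passed it. All 5 had an unadjusted p under 0.05 in edgeR and in DESeq2. The summed level of the 5 was 399, 350 and 389 TPM in the controls and 410, 484 and 546 in Kdm1a-ifKO. C1qa was the most abundant, at 152 and 198 TPM. Their part in the Nckap1l value was not tested.

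Lnpk, the neighbour of Evx2 on the posterior side of Hoxd, was chosen after its values were seen. It had 27.14, 30.29 and 38.85 CPM in the controls and 23.24, 24.47 and 19.97 in Kdm1a-ifKO. The groups did not overlap, but edgeR did not call Lnpk (log2 difference -0.51, SE 0.135, adjusted p = 0.0539 with Benjamini-Hochberg adjustment, lower in 3 of 3 Kdm1a-ifKO libraries), whereas DESeq2 did (adjusted p = 0.00248). With all 6 libraries edgeR also called it with at least 10 counts summed (adjusted p = 0.0461), with upper-quartile scaling (0.0430) and without a filter (3.56e-08). The fit without a filter lowered other values too, for Kdm1a from 6.24e-08 to 2.02e-53, and called 14.7% of the genes that had passed the filter. EdgeR did not call Lnpk with DESeq2 size factors (adjusted p = 0.0511) or with the replicate number as a block (0.112). When libraries were left out, edgeR called it without control 1 (adjusted p = 0.0147, log2 difference -0.61) or control 3 (0.0358, -0.35). It was not called without control 2 (0.0702), Kdm1a-ifKO 1 (0.134), Kdm1a-ifKO 2 (0.0628) or Kdm1a-ifKO 3 (0.145). The log2 difference in DESeq2 was -0.51. Mtx2, the gene past the anterior end of Hoxd, stood at 39.3 TPM in the controls and 36.0 in Kdm1a-ifKO and was not called.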

How the data were processed

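RNA-seq was analysed for 3 control and 3 Kdm1a-ifKO libraries and CTCF ChIA-PET for 1 control library. The authors trimmed single-end poly-A reads with cutadapt 1.18, aligned them with HISAT2 2.1.0 and counted them per gene with HTSeq 0.11.1, and the deposited table gives raw read counts. The authors called loops on mm10, and the deposited file gives PET counts, with 3 as the least. Anchor starts were read as counted from 0. A loop belonged to a cluster when an anchor overlapped the span from the lowest to the highest base of its Hox genes.

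Genotypes were compared with edgeR 4.0.16 in R 4.3.3 (filterByExpr, TMM, quasi-likelihood F test) over all genes, with Benjamini-Hochberg adjustment and calls at 0.05, and with DESeq2 1.42.0, after both were tested on simulated data. CPM of single genes were scaled by TMM, those of Hox sums by the library total, and TPM used exon lengths. Sequences were read from GRCm38.p6 with pysam 0.24.0 in Python 3.11.15. Alternatives were other scalings and filters, the replicate number as a block, leaving out each library, and stricter loop rules.

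Named genes were Kdm1a, Hox genes that passed the filter or had at least 10 counts, the 5 other cluster genes with most counts, and in each list or neighbourhood those called and the 2 most abundant. No Hox gene met that rule, so those named were chosen after their values were seen, as were other genes named outside it, among them Lnpk, Mtx2, Evx1, Evx2, Aldh1a2, Cyp26b1, Wapl and genes at the ends of strong loops. Named loops were the 10 strongest and the strongest of each cluster. Other loops were named after they were seen, among them the inner loop of Hoxc, the exception at Hoxc site 2 and the longest loop of Hoxd. The members and lists were chosen with earlier results of these data known.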

Additional observations from a re-analysis of the deposited data

How the results depend on the processing

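The number of Hox genes called was 0 in edgeR and DESeq2 under all settings tried. In the fit without a filter and in DESeq2, 0 were at an unadjusted p under 0.05. No Hox gene passed the filter or had 10 counts, and DESeq2 gave none an adjusted p. Most settings could therefore not have called one. The number of genes called at outer anchors was also 0 under all settings tried. The log2 difference of Hox genes that passed the filter could not be given, since none passed. Of the listed genes, 4 were called, 12 without a filter, and 1 to 4 when each library was left out in turn (1 without Kdm1a-ifKO 3, 2 without Kdm1a-ifKO 1 or control 3). Of the flanking genes, 1 was called, 2 with DESeq2 or with at least 10 counts summed, 3 with upper-quartile scaling, 4 without a filter, and 0 to 3 when each library was left out (0 without Kdm1a-ifKO 3 or control 2, 2 without control 1, 3 without control 3). The cause was not tested. Lnpk was the added gene in DESeq2. Loops in a Hox cluster numbered 53, 24 with at least 5 PETs, 11 with at least 10, and 59 with the spans extended by 10 kb. Summed Hox CPM moved by less than the spread between libraries under the scalings tried. When each library was left out, it ran from 0.209 to 0.262 in the controls and from 0.0514 (without Kdm1a-ifKO 1) to 0.257 (without Kdm1a-ifKO 3) in Kdm1a-ifKO, so the order of the genotypes depended on single libraries. Of the CTCF and cohesin genes, 0 were called, 2 without a filter and 1 without control 1, and of the retinoic acid genes 2 were called, 6 without a filter.

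The replicate numbers did not pair the mice. Deviations from the genotype mean correlated by -0.041, -0.10 and -0.16 between libraries of the same number, and no library correlated best with its own number. With the replicate number as a block, 3 of the listed and 1 of the flanking genes were called, and Rarg was not (adjusted p = 0.0569). Of 180 settings over 15 single genes, 146 kept the call, 34 lost it and 0 reversed, and 6 genes were called in every setting.

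The RNA came from whole hippocampus, so silence in 1 cell type cannot be read apart from the rest. A gene at 0 counts over a genotype may have had up to 3, which is about 0.052 CPM at this depth, so Hox RNA below that can be missed, and RNA without a poly-A tail may not be seen. Reads on overlapping gene models may be lost. The loops come from 1 library of excitatory neuron nuclei of controls without replicates, so their counts have no error and no comparison between genotypes.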
